A study of Mus musculus with 12 samples.

Results

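The data describe accessible chromatin at 10 genes of the Notch pathway in the mouse muscle precursor line C2C12, whose cells divide while serum is plentiful and form multinucleate myotubes once it is taken away. The genes were the ligands Dll1, Jag1 and Jag2, the receptors Notch1, Notch2 and Notch3, the DNA-binding factor Rbpj, and the target genes Hes1, Hey1 and Heyl. An ATAC-seq peak, an interval in which the Tn5 transposase cut more often than in its surroundings, was counted for a gene when its centre lay in the gene body or within 10 kb of it. By this rule the 10 genes held 30 of 34118 peaks of the wild-type list and 23 of 27187 peaks of the knockout list. All 10 genes had at least 1 peak in each list. By the same rule, 14220 of 21896 protein-coding genes had a peak in at least 1 of the lists.

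The series has 12 samples in 4 groups of 3. The lists used here come from C2C12 cells at day 0 in growth medium with 20% fetal bovine serum, either wild type (WT) or Runx1KO, in which the gene for the transcription factor Runx1 was knocked out (KO below). The peak names all refer to replicate 1, so each value below belongs to 1 library per genotype, has no replicate error and carries no p-value between genotypes. Whether the other replicates had a part in which peaks were kept is not stated. The cells at day 2 of differentiation medium were not analysed here, and whether the knockout line is a clone or a pool is not given in the sources used here.

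Notch signalling passes between touching cells. A ligand on a neighbouring cell binds a Notch receptor, the receptor is cleaved inside the membrane, and its freed intracellular part enters the nucleus, where it joins RBPJ and Mastermind proteins on DNA. The best known targets are repressors of the HES and HEY families. In skeletal muscle, Notch activity is known for keeping satellite cells quiescent and for holding back the differentiation of myoblasts.

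The 2 lists differ in size, and the number of peaks in KO was 79.7% of that in WT. How deeply the libraries were sequenced is unknown, and the numbering of the original calls ran to 55373 in WT and 48922 in KO. At Runx1 itself, the WT list held 19 peaks, 7 of them without a KO partner, and the KO list held 12, but a peak list does not read the edited allele. Of 7 myoblast genes, 6 had a peak in WT and 5 in KO, among them Myod1, Des and Cdh15 in both lists. Myf5 had none in either list, and the 1 peak at Pax7 was in the WT list only. Of 6 genes of other cell types, 2 (Pecam1 and Cdh5) had a peak in each list, while Ptprc, Epcam, Sox10 and Cd3e had none. These counts stand beside the 14220 of 21896 protein-coding genes with a peak of either list.

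The promoters are shown first, because the genes fell into those with and those without a peak at their start. A RefSeq table of mouse promoters (GRCm38.p6) held 9 windows for 7 of the 10 genes, and a peak counted as being at a start when its centre lay within 1 kb of it. Each sequence below is the 250 bases before the annotated start on the strand of the gene. Capitals mark matches to any of 6 short words that were searched on both strands: TGGGAA (the core of the RBPJ motif), TGTGGT (RUNX), CCGGAAG (ETS), TGANTCA (AP-1), CAGCTG (an E-box) and CACGTG (HES/HEY). The first 3 sequences come from genes with a peak of both lists at the start, and the last 3 from genes without one.
Rbpj, chr5:53590096-53590345, plus strand: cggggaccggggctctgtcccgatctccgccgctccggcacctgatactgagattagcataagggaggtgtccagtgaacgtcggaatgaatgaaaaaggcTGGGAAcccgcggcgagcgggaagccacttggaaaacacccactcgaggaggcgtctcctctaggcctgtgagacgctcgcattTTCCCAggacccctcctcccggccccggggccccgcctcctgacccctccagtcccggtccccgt
Notch2, chr3:98013288-98013537, plus strand: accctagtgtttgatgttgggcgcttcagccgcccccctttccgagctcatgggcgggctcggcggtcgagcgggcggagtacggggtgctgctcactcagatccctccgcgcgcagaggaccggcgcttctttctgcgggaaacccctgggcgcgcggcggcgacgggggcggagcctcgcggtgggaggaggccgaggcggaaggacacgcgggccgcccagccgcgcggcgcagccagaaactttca
Jag1, chr2:137116521-137116770, minus strand: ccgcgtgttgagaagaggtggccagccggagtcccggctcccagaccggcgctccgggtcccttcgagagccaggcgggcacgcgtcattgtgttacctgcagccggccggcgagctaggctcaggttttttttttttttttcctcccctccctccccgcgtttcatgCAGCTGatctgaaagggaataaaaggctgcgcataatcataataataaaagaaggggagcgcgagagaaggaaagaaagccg
Notch1, chr2:26503823-26504072, minus strand: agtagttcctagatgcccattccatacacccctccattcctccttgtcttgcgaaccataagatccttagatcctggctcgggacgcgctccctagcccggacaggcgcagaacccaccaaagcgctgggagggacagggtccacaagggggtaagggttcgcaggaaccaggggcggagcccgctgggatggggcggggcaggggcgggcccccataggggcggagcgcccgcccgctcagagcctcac
Notch3, chr17:32166891-32167140, minus strand: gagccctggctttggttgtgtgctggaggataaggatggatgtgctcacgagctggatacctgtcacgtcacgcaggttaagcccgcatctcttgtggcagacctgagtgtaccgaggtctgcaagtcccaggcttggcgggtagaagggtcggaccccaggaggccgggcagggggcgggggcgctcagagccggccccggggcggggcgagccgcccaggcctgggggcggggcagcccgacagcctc
Dll1, chr17:15376933-15377182, minus strand: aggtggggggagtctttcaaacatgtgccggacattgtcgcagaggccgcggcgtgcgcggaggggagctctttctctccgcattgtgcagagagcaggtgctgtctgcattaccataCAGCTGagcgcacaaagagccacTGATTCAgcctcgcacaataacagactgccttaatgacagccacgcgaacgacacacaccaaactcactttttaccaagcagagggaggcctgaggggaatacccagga

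The Rbpj promoter was the only one of the 7 genes whose windows held the RBPJ core word. It held the word 2 times, as TGGGAA 149 bases and as its reverse complement TTCCCA 65 bases before the start, at chr5:53590197-53590202 and chr5:53590281-53590286. Both copies lay inside the WT peak and inside its KO partner. The word is frequent, since 21.6% of 32851 promoter windows held at least 1 copy. No member window held the RUNX word, which 14.0% of all windows held, nor the ETS word (6.91%) or the HES/HEY word (6.02%). The E-box word stood in the Jag1 window, 82 bases before the start, and in 1 of the Dll1 windows, 132 bases before it. The AP-1 word was found 1 time, in the same Dll1 window, 109 bases before the start. These last 3 copies were outside any peak of either list. Over all windows, 13.0% held the E-box word and 6.75% the AP-1 word. A match describes letters in a window and is not evidence that a factor binds there.

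The 9 member windows were rich in G and C. Their GC content ranged from 56.0% at Dll1 to 87.2% at Jag2 with a median of 66.0%, against a median of 52.4% over all windows. They held between 13 and 54 CpG dinucleotides, with a median of 21 against 6 over all windows. Of the windows without a peak at the start, that of Notch1 held 16, that of Notch3 17 and those of Dll1 21 and 13. Of those with one, Jag1 held 20, Notch2 34, the Rbpj windows 21 and 25, and Jag2 54, so the ranges met between 20 and 21.

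The starts of Jag1, Jag2, Notch2 and Rbpj had a peak centre within 1 kb in the WT list, and the same 4 genes had one in the KO list. This is 4 of 7 genes, where 44.8% of 17491 protein-coding genes had a WT peak and 41.0% a KO peak at a start. The WT peak covered all 250 printed bases at Notch2 and 183 at Rbpj, but only 39 at Jag1 and 1 at Jag2, where it lay further upstream. In the KO list, 250 bases were covered at Notch2, 194 at Rbpj, 66 at Jag1 and 0 at Jag2. For Hes1, Hey1 and Heyl the table held no promoter window, so their peaks are placed by the ends of the gene. Hes1 and Hey1 each had a peak of both lists within 1 kb of an end, and Heyl had none. By that measure Rbpj had none either, since the starts of its windows lie inside the gene.

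Notch1, Notch3 and Dll1 had no peak of either list at the start. The nearest WT peak centre was 3.81 kb from the start at Notch1, 5.60 kb at Notch3 and 9.99 kb at Dll1, and the nearest KO centre was 3.83, 6.45 and 9.88 kb away. The peak numbers bear on whether a call had been removed there before deposit, because they rise along the chromosome and skip the removed calls. How strong the removed calls were is unknown. Between the WT peaks on either side of the Notch1 start, and likewise of the Notch3 start, no number was missing. Between the KO peaks that flank them, 3 numbers were missing at Notch1 and 2 at Notch3. At Dll1 the order was the other way, with 1 number missing in WT and 0 in KO. Where such removed calls lay within these stretches cannot be read from the lists.

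**Figure D1:**
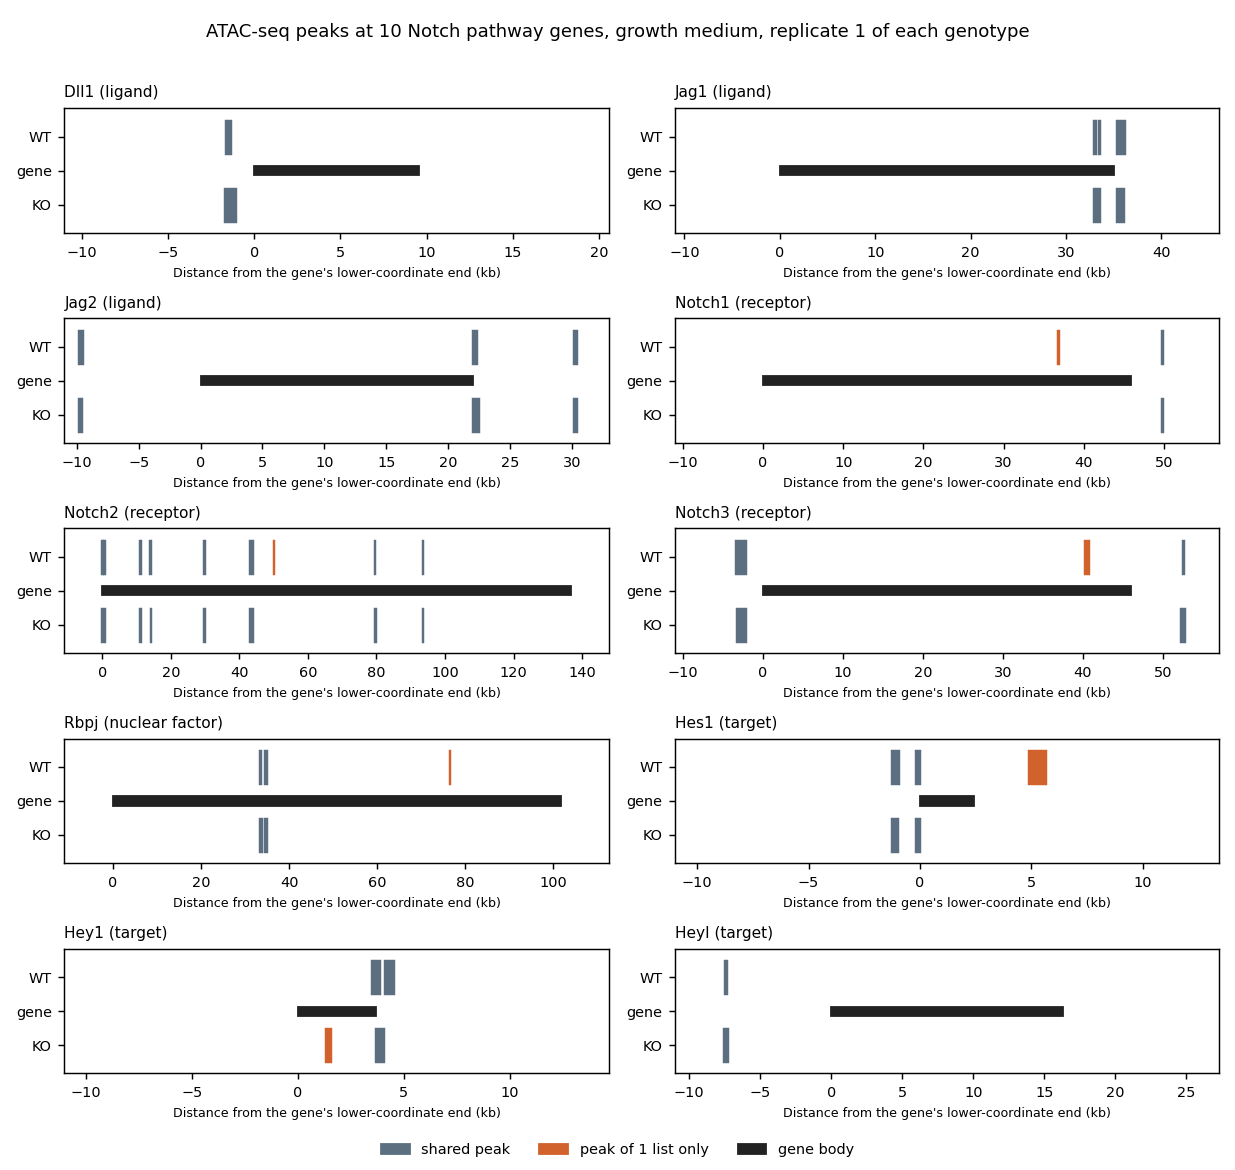
Peaks of the WT list (upper row of each panel) and the KO list (lower row) at the 10 genes, by distance in kb from the lower-coordinate end of the gene, with the gene body as a black bar; peak widths are to scale, and the narrow gaps between neighbouring intervals at Jag1 and Notch2 are too small to see. The peaks of 1 list only (orange) are 5 in WT, at Notch1, Notch2, Notch3, Rbpj and Hes1, and 1 in KO, at Hey1.

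Most peaks at the Notch genes were present in both lists. In WT, 25 of 30 peaks overlapped a KO peak by at least 1 bp and 5 were WT specific (16.7%, 95% Wilson interval 7.34 to 33.6, counting error only), where 27.3% of all WT peaks were WT specific. In KO, 22 of 23 peaks overlapped a WT peak and 1 was KO specific (4.35%, interval 0.772 to 20.99), where 9.59% of all KO peaks were KO specific. Both intervals contain the share of the whole list. By gene, 5 of 10 had a WT specific peak and 1 of 10 a KO specific peak, beside 38.4% and 11.3% of the 14220 protein-coding genes that had a peak. The KO list held fewer peaks than the WT list at 6 genes, as many at 4 and more at none. Its 23 peaks were 76.7% of the WT number, near the 79.7% of the whole lists.

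The deposited strength of a peak is given here as its fold over local background and its −log10 q, both the authors' own values, and as the percentile of its −log10 q among all peaks of its list. These values depend on depth and are read within a list. The 30 WT peaks had a median −log10 q of 13.4 and a median fold of 7.61, against 16.1 and 9.10 in the whole WT list. The 23 KO peaks had a median of 15.6 and a fold of 7.22, against 17.6 and 8.84. In both lists the medians at the Notch genes were below those of the list, and the number above the list's median −log10 q was 11 of 30 in WT and 8 of 23 in KO. The range was wide, from a −log10 q of 3.74 at Jag1 to 49.95 at Notch2 in WT, and from 6.01 to 48.6, both at Notch2, in KO.

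**Figure D2:**
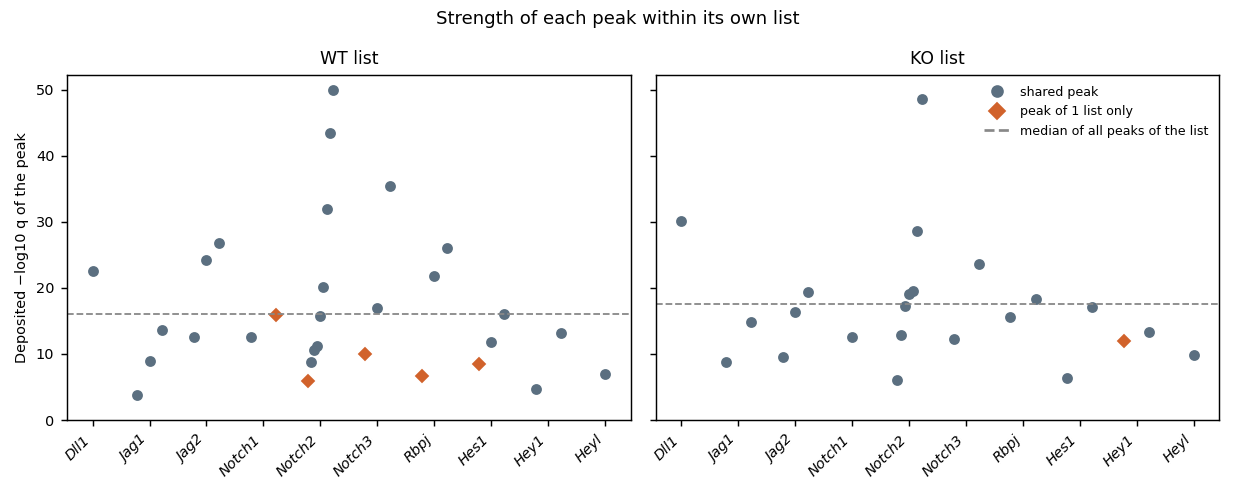
Deposited −log10 q of each peak at the 10 genes in the WT list (left) and the KO list (right); each point is a peak and the dashed line is the median of all peaks of that list, 16.1 in WT and 17.6 in KO. The peaks of 1 list only (orange diamonds) lie below the line of their list, and the highest point of both panels is at Notch2.

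The ligands carried no peak that was confined to 1 list. Their 7 WT peaks and 6 KO peaks were all shared (0% specific, Wilson interval up to 35.4 in WT and 39.0 in KO). Dll1, a Delta-type ligand, had a single peak in each list, beyond the end of the gene that lies away from its starts. In WT it lay at chr17:15365649-15366009 with a fold of 11.9 and a −log10 q of 22.5 (percentile 65.2). Its KO partner, chr17:15365600-15366276, had a fold of 12.9 and a −log10 q of 30.2 (percentile 78.1) and was the strongest KO peak among those of the ligands. The KO interval measured 677 bp and the WT interval 361 bp, and their summits lay 25 bp apart.

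Jag1, a Jagged-type ligand, had 3 WT peaks and 2 KO peaks around its start. The upstream peak was broad in both lists, 894 bp in WT (chr2:137116732-137117625, −log10 q 13.7, percentile 42.2) and 860 bp in KO (−log10 q 8.86, percentile 17.4). Inside the gene, the WT list had a peak at chr2:137114284-137114607 with a −log10 q of 8.96 and another at chr2:137114765-137115051 with 3.74, at percentile 2.92 the weakest of all 30. The KO list had a single interval of 798 bp across both, chr2:137114236-137115033, with a −log10 q of 14.8. So the count at Jag1 was lower in KO because 1 KO interval overlapped 2 WT intervals. It also covered the 157 bp between them, which no WT peak covered.

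Jag2, the second Jagged-type ligand, had 3 peaks in each list, all centred outside the gene body. The peak nearest its start, chr12:112929745-112930110, had a fold of 7.40 and a −log10 q of 12.5 in WT (percentile 37.9). Its KO partner had 6.16 and 9.47 (percentile 20.0). The peak 8.24 kb beyond the gene had the highest −log10 q of the 3 in both lists, 26.8 in WT (percentile 72.6) and 19.4 in KO (percentile 55.4). Its folds were 10.0 and 8.12, and it lies inside the neighbouring gene Nudt14. The peak on the other side, chr12:112897919-112898265 in WT, had a −log10 q of 24.2 (percentile 68.4) and its KO partner 16.4 (percentile 46.3), with higher folds of 11.9 and 8.94. That peak was also the last one inside the distance limit, 9.71 kb from the gene. The first WT peak beyond the limit, 12.1 kb from Notch3 (chr17:32108468-32108995, −log10 q 13.3), was WT specific. In KO the last one inside was the partner of the same Jag2 peak at 9.73 kb, and the first one beyond lay 12.1 kb from Notch1 and was shared.

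The receptors held 14 WT peaks, of which 3 were WT specific, 1 at each receptor, and 10 KO peaks, none of them KO specific. Notch2 was the richest of the 10 genes, with 9 WT and 7 KO peaks over a gene of 137 kb. Its strongest peak lay 43.4 kb downstream of the start in both lists. In WT this was chr3:98056456-98057387, 932 bp wide, with a fold of 13.8 and a −log10 q of 49.95 (percentile 92.1). The KO partner, chr3:98056392-98057385, was 994 bp wide with a fold of 12.8 and a −log10 q of 48.6 (percentile 93.3). These were the highest −log10 q values among the peaks of the 10 genes in each list. The fold was higher at a Notch3 peak in WT (15.4) and at the Dll1 peak in KO (12.9).

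A second strong WT peak of Notch2, chr3:98027256-98027736, had a −log10 q of 43.4 (percentile 88.7). Its KO partner was narrower, 314 against 481 bp, and had a −log10 q of 17.3 (percentile 49.1). The peak 29.7 kb into the gene had 31.9 in WT and 28.6 in KO, and the one 79.5 kb in had 20.2 and 19.5. The weaker shared peaks were those 11.1 kb into the gene, with a −log10 q of 8.78 in WT and 12.8 in KO, inside the lncRNA gene Gm40103 as well, and 93.3 kb in, with 10.6 and 6.01. The shared peaks of Notch2 thus spanned percentiles 22.8 to 92.1 in WT and 6.97 to 93.3 in KO.

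At the start of Notch2, the WT list had a peak over the first base of the gene, chr3:98013173-98013666 (−log10 q 11.2), and another just downstream, chr3:98013850-98014238 (15.7). The KO list had a single interval across the start, chr3:98013282-98014248, of 967 bp with a −log10 q of 19.1. The WT specific peak of Notch2, chr3:98063484-98063658, lay 50033 bp downstream of the start. It was only 175 bp wide, the narrowest of the 30, with a fold of 5.48 and a −log10 q of 5.97 (percentile 10.5). The nearest KO peak was 6.10 kb away.

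Notch1 had 2 WT peaks and 1 KO peak. The shared peak lay 3.81 kb upstream of the start, at chr2:26507502-26507768 in WT, with a fold of 7.98 and a −log10 q of 12.6. The KO partner had a fold of 6.99 and a −log10 q of 12.6, at percentile 32.4 of its list against 38.2 for the WT peak. The WT specific peak, chr2:26494569-26494798, lay 9.14 kb downstream of the start, inside the gene, with a fold of 9.14 and a −log10 q of 15.9. At percentile 49.2 it was the strongest of the 5 WT specific peaks. The nearest KO peak was 12.7 kb away, and the body of Notch1 had no peak in the KO list.

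Notch3, a receptor known from smooth muscle and from satellite cells, had 3 WT peaks and 2 KO peaks. The WT specific peak, chr17:32160993-32161586, lay 5.60 kb downstream of the start and was 594 bp wide with a fold of 6.45 and a −log10 q of 10.0 (percentile 28.1). As at Notch1, no KO peak lay in the gene body, and the nearest was 11.4 kb away. Upstream of the gene, 6.51 kb from the start, lay its strongest peak, chr17:32173267-32173524, with a −log10 q of 35.4 in WT. The KO partner had 23.6 and was wider, 636 against 258 bp. The widest peak of the whole set, 1399 bp in WT and 1345 bp in KO, lay beyond the other end of Notch3 at chr17:32117380-32118778, inside the lncRNA gene Gm38585, with a −log10 q of 16.9 in WT and 12.3 in KO.

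Rbpj, which recruits the cleaved receptor to DNA, had 3 WT peaks and 2 KO peaks, all inside the gene. The peak at the starts of its promoter windows was chr5:53590163-53590701 in WT with a fold of 10.2 and a −log10 q of 26.0 (percentile 71.4). Part of its sequence is shown above. It lay 34.7 kb from the lower-coordinate end of the gene, and no peak of either list was centred within 1 kb of that end. The KO partner, chr5:53590152-53590721, had a fold of 8.08 and a −log10 q of 18.4 (percentile 52.3). A second shared peak lay 1.14 kb upstream, with a −log10 q of 21.8 in WT and 15.6 in KO, and its summits in the 2 lists were 1 bp apart. The WT specific peak, chr5:53632074-53632344, lay 41.7 kb downstream of the starts with a fold of 6.37 and a −log10 q of 6.61 (percentile 13.4). The nearest KO peak was 41.4 kb away.

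None of the 6 WT and 5 KO peaks at the target genes exceeded the median of its list. Their median −log10 q was 10.1 in WT and 12.02 in KO, the lowest of the 4 roles in both lists. At Hes1, the repressor most widely used as a readout of Notch, the strongest peak in each list ended at the lower-coordinate end of the gene, at chr16:30065126-30065358 in WT (−log10 q 16.0) and chr16:30065148-30065357 in KO (17.1). Another shared peak lay 1.12 kb from the gene in WT and 1.14 kb from it in KO, with a −log10 q of 11.8 in WT and 6.43 in KO. The WT specific peak of Hes1, chr16:30070227-30071020, was on the other side, 2.83 kb beyond the gene. It was 794 bp wide with a fold of 5.76 and a −log10 q of 8.45 (percentile 21.4), and it overlaps the neighbouring gene Gm32998. The nearest KO peak was 4.87 kb away.

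Hey1, a repressor of the HEY family, was the only one of the 10 genes with a KO specific peak. It lay inside the gene at chr3:8664648-8664912, 265 bp wide, with a fold of 6.92 and a −log10 q of 12.02 (percentile 30.1), and the nearest WT peak was 1.91 kb away. At the higher-coordinate end of the gene, which the gene LOC115489673 overlaps, the WT list had peaks at chr3:8666825-8667221 (−log10 q 13.2) and chr3:8667404-8667884 (4.68). The KO list had the single interval chr3:8667012-8667424 there, with a −log10 q of 13.4. The weaker WT peak counted as shared through an overlap of only 21 bp.

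Heyl, the third target gene, had 1 shared peak, 7.44 kb outside the lower-coordinate end of the gene, at chr4:123226022-123226217 in WT. Its −log10 q was 7.01 in WT (percentile 14.9) and 9.79 in KO (percentile 21.3), and the KO interval was wider, 332 against 196 bp. The gene body of Heyl had no peak in either list. The same held for the bodies of Dll1, Jag2 and Hes1, whose peaks all had their centres outside the gene.

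By position, 4 of the 5 WT specific peaks and the KO specific peak of Hey1 lay inside gene bodies, and none had its centre within 1 kb of an end of its gene. In the whole lists, which also hold peaks far from genes, 53.8% of WT specific and 48.9% of KO specific peaks were centred inside a protein-coding gene, and 13.3% and 8.71% within 1 kb of an end of one. Which of them are exonic or intronic was not determined, since the gene table gives no exons. The 5 WT specific peaks had a median −log10 q of 8.45, a median fold of 6.37 and a median width of 271 bp, against 8.38, 6.50 and 250 bp for all WT specific peaks. Beside each of the 6 peaks, at least 1 call number of the other list was missing between its neighbouring retained peaks: 3 at Notch1 and Hey1, 2 at Notch2 and Notch3, and 1 at Rbpj and Hes1. This was also the usual state, since 87.1% of all WT specific and 87.4% of all KO specific peaks lay beside a missing number. At Notch1 and Notch3 the missing numbers are the same as those given above for the starts, since the same KO peaks flank both places. The part of removed calls in these 6 differences was not tested.

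Shared peaks overlap by definition, and at the Notch genes their widths and summits compared much as in the whole lists. Among 19 peaks with exactly 1 partner in each direction, the KO interval was wider in 10 and narrower in 9 (52.6% wider, against 52.1% of 24065 such pairs in the whole lists). The summits were a median of 34 bp apart, against 30 bp in the whole lists. They were within 100 bp in 16 of the 19 pairs (84.2%), against 88.3% of all pairs. The exceptions were the broad intervals, with summits 264 bp apart at Notch3, 250 bp at Jag1 and 182 bp at Notch2. The largest gain in width was 378 bp, at the upstream peak of Notch3, and Dll1 followed with 316 bp. The widest loss was at the Notch2 peak 14.0 kb into the gene, which fell by 167 bp.

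**Figure D3:**
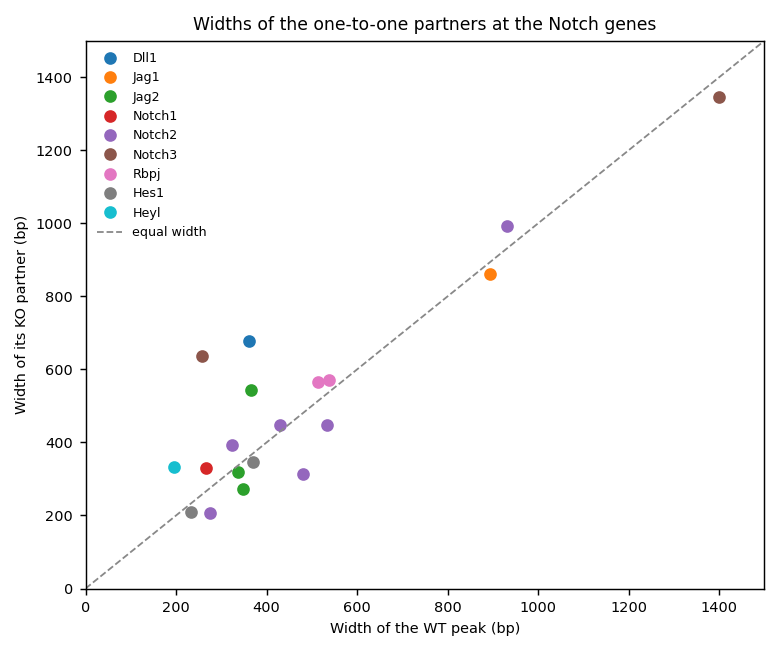
Width in bp of each WT peak (x axis) and of its KO partner (y axis) for the 19 one-to-one partners at the Notch genes, coloured by gene; the dashed line marks equal width. Of the points, 10 lie above the line and 9 below it, and Dll1 and the upstream peak of Notch3 lie farthest above.

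The remaining shared peaks were cases in which a KO interval overlapped 2 WT intervals. This happened at 3 genes, Jag1, Notch2 and Hey1, and so for 3 of 23 KO peaks, where 1.17% of all KO peaks overlapped 2 or more WT peaks. The gaps between the WT intervals were 157 bp at Jag1, 183 bp at Notch2 and 182 bp at Hey1. All of these intervals were at or close to a gene start or end, with KO centres 1.89 kb (Jag1), 0.227 kb (Notch2) and 0.180 kb (Hey1) from it. The reverse, a WT interval over 2 KO intervals, did not occur at the 10 genes, and 0.293% of all WT peaks were of that kind. This feature was singled out after the values had been seen, and it accounts for the step from 25 shared WT peaks to 22 shared KO peaks.

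A wider list of 47 genes of the pathway, which includes the 10, put these counts beside the rest of the machinery. It covers further ligands and receptors, proteins that act in the cleavage of Notch, the enzymes that glycosylate it, factors of endocytosis and turnover, and the nuclear complex. A peak of either list was found at 43 of the 47 genes, and at 14220 of all 21896 protein-coding genes. The WT list held 131 peaks at these genes, 24 of them WT specific (18.3%), and the KO list held 108, of which 7 were KO specific (6.48%), beside the 27.3% and 9.59% of the whole lists. Counted by gene, 16 of the 43 genes with a peak had a WT specific one (37.2%) and 6 a KO specific one (14.0%). Among all genes with a peak these shares were 38.4% and 11.3%. Without the 10 genes, the counts were 19 of 101 WT peaks (18.8%) and 6 of 85 KO peaks (7.06%).

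Counts by role were small, and no difference between roles was tested. None of the 9 WT and 8 KO peaks at the 5 ligand genes was specific, and Dll3 had no peak. At the receptor genes 3 of 15 WT peaks were WT specific (20.0%), and at the genes of endocytosis and turnover 2 of 24 (8.33%). The glycosylation genes had 4 WT specific peaks of 9 (44.4%) and the target genes 5 of 14 (35.7%), both above the 27.3% of all WT peaks. Most of these came from 1 gene per role, with 3 of the 4 at Lfng and 3 of the 5 at Hes7. KO specific were 0 of 11 peaks at the receptors, 0 of 5 at the glycosylation genes, 2 of 23 at the turnover genes and 1 of 9 at the targets. Of the 15 WT peaks at the genes of Notch cleavage, which include the proteases Adam10 and Adam17, 2 were WT specific. None of the 13 KO peaks at these genes was KO specific. The genes of the nuclear complex held more peaks than any other role, with 45 in WT (8 specific) and 39 in KO (4 specific). Maml3, which encodes a Mastermind coactivator, had the most peaks, 18 in WT with 5 WT specific and 12 in KO with none KO specific. Maml2, another Mastermind gene, had 12 peaks in each list, with 1 WT specific and 2 KO specific. Both Mastermind genes are long, 418 kb for Maml3 and 413 kb for Maml2, and counts were not scaled by length.

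Lfng, the Fringe glycosyltransferase that alters which ligands a receptor answers to, had 2 KO peaks and 5 WT peaks, of which 3 were WT specific. Hes7, a HES gene known from the segmentation clock, had 4 WT peaks with 3 WT specific and 1 KO peak. At each of these genes 1 WT peak and 0 KO peaks were centred inside the gene body, and the others lay in the flanks of 10 kb. A single KO specific peak was found at Neurl1a and Dtx2, which act in ligand endocytosis and receptor turnover, and at Snw1 and Spen, both known as partners of RBPJ complexes. At Neurl1a 1 of 8 WT peaks was WT specific, and at Dtx2, Snw1 and Spen no WT peak was.

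**Figure D4:**
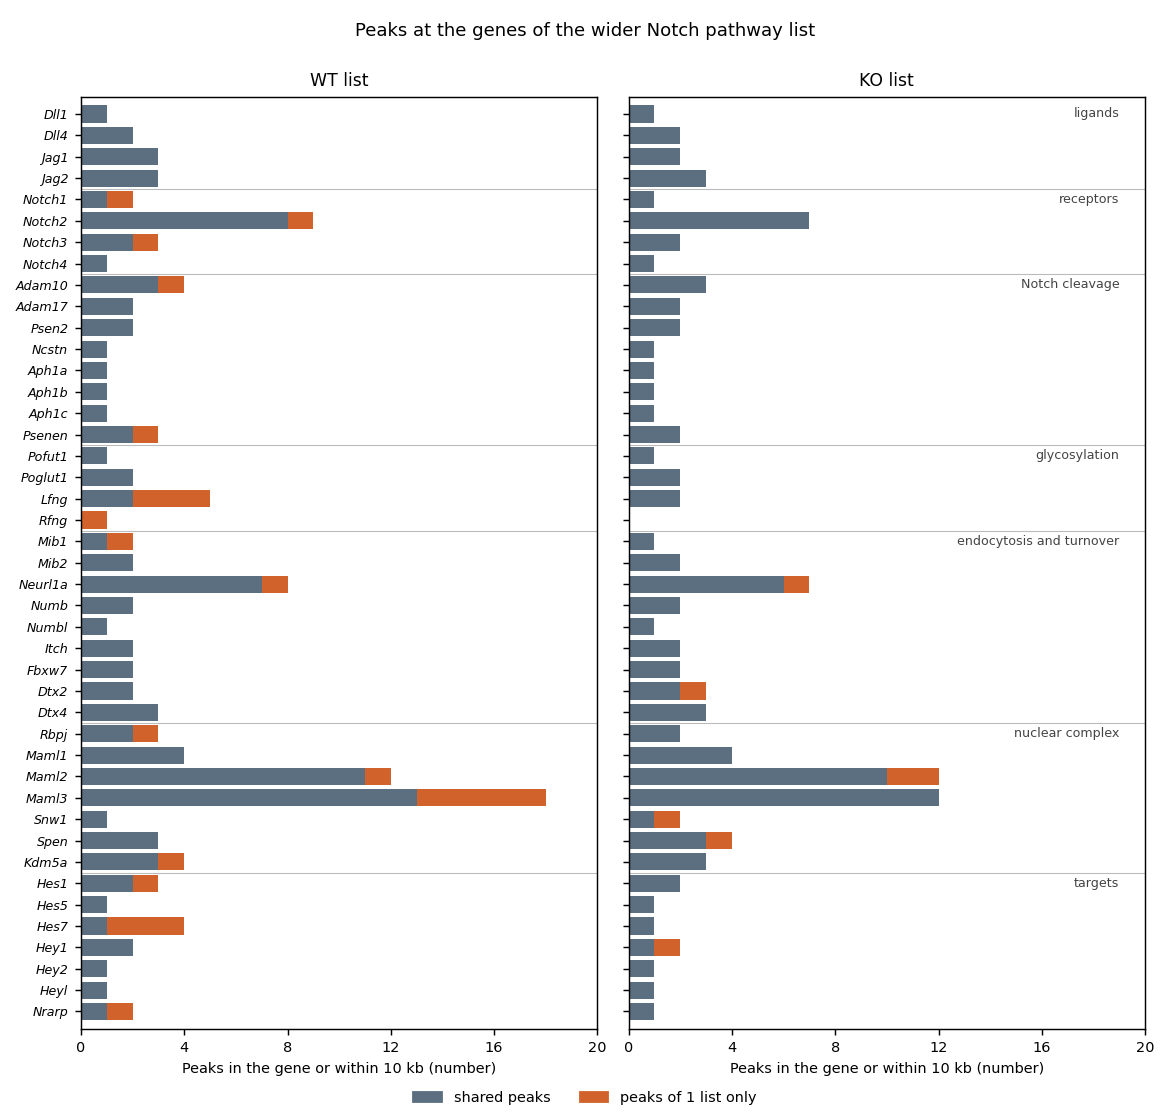
Number of peaks in the gene or within 10 kb for the 43 genes of the wider Notch list that had a peak, in the WT list (left) and the KO list (right), with shared peaks in grey, peaks of 1 list only in orange, and the genes grouped by role. The longest bars are those of Maml3 and Maml2, and the bars of the ligand genes hold no orange.

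The pattern of counts at most of the 10 genes was a common one. Among the 14220 protein-coding genes with a peak, 4375 others had the counts of Dll1 and Heyl (1 shared peak in each list), 1126 those of Notch1, and 733 those that Notch3, Rbpj and Hes1 have in common. Notch2 shared its counts with 2 other genes and Hey1 with 11. Density differed among the 10 genes in another order than number. Per 100 kb of gene and flanks, WT peaks numbered 13.4 at Hes1, 8.45 at Hey1, 7.14 at Jag2 and 5.74 at Notch2, and 2.47 at Rbpj.

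The rule of assignment changed the number of peaks most at Jag2 with a distance of 50 kb, and most at Hes1 with the nearest gene end. At 50 kb, Jag2 had 8 peaks in each list, all shared, and Hes1 had 6 in WT and 5 in KO. When each peak was given to the protein-coding gene with the nearest end, Hes1 received 16 peaks in WT (3 WT specific) and 13 in KO (none KO specific). By the rule of 10 kb it had 3 and 2. Rbpj then received 8 WT and 6 KO peaks and Jag1 9 and 8, all shared at Jag1, while Heyl received none, since the end of another gene is nearer to its peak. The nearest peak beyond 10 kb at Dll1, 19.4 kb from the gene at chr17:15396050-15396538, had a −log10 q of 50.5 in WT and 43.0 in its KO partner. At Jag1 a peak 13.6 kb away in WT, chr2:137067529-137068166, had 55.1, and its KO partner had 37.1. Both exceeded in WT every peak inside the limit.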

How the data were processed

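Peak lists from ATAC-seq, in the layout of a narrowPeak file without header, were used for WT and KO cells in growth medium. The deposited columns hold, as written by the authors, a score, a fold (ratio) over local background, the −log10 of the p-value and of the q-value, and the summit offset. The genome build is mm10, per the submitters' processing notes. The aligner, the peak caller and the rule by which calls were removed are not given in the sources used here. Depth is unknown, and unequal depth changes how many peaks are called.

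Peaks were read from the full lists, and their class from the deposited shared and specific lists, which matched an overlap of at least 1 bp for all 34118 WT and 27187 KO peaks. Shared entries are WT intervals. Genes and promoters came from RefSeq tables of GRCm38.p6, the assembly of mm10, and coordinates are counted from 1. The word search used 250 bases per window. All 10 Notch genes are described, and of the wider list those with at least 2 WT specific or 1 KO specific peak and that with most peaks, with other roles given by example. Some genes of the wider list as first drawn up are not reported here. Members and lists were chosen with earlier results of these data known. With 1 library per genotype no test was made, and Wilson intervals cover counting error only. The overlap and gene assignment were tested on simulated data and against bedtools 2.31.1 (4 of 4 checks passed). Alternatives in the gene assignment, the threshold and the overlap were computed in Python 3.11.15 with pandas 2.3.3, scipy 1.17.1 and numpy 2.4.6.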

Additional observations from a re-analysis of the deposited data

How the results depend on the processing

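The counts at the Notch genes (30 WT peaks with 5 WT specific, 23 KO peaks with 1 KO specific) depended on the gene assignment and the threshold. Gene bodies alone held 16 WT peaks (4 specific) and 11 KO peaks (1 specific). A distance of 50 kb gave 51 WT peaks (8 specific) and 42 KO peaks (2 specific), and the nearest gene end 55 (11) and 43 (2). Of peaks no weaker than the median −log10 q of their list, 11 WT and 8 KO peaks were left, and 0 of either were specific. When a partner had to cover at least 50% of the peak, 6 WT and 2 KO peaks were specific, and with any peak within 500 bp as partner 5 and 1. The whole lists moved as well: 6.17% of all WT and 1.45% of all KO peaks were specific at or above the median −log10 q, 29.9% and 14.2% with a partner covering 50%, and 26.4% and 9.26% with one within 500 bp. No paired analysis was possible because each list holds the values of 1 library, and for the same reason no replicate could be left out. Differences in depth between the libraries cannot be told apart from the genotype.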
